A study of Mus musculus with 2 samples.

Results

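Proliferating neutrophil precursors of mouse bone marrow were selected by a rule on 9 transcripts and compared between a control and a MYC library. A cell was a member when it held at least 1000 unique molecular identifiers (UMIs, each standing for 1 captured transcript) and under 10% mitochondrial UMIs. At least 2% of its UMIs had to come from Camp, Ngp and Ltf together, under 1% from Elane, Mpo, Prtn3 and Ctsg together, and at least 2 UMIs from Mki67 and Top2a together. The rule found 4065 cells among 31569 barcodes, of which 23794 were within the UMI and mitochondrial limits. The control library gave 2207 members with 26454155 UMIs, and the MYC library 1858 members with 24890344 UMIs.

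The series profiled hematopoietic cells of the bone marrow in droplets, reading the 3′ ends of transcripts, and each genotype gave 1 library. The control genotype was Mx1Cre+/-;Rosa26+/+, and the MYC genotype was Mx1Cre+/-;Rosa26LSL-MYC/LSL-MYC. Both thus carried Cre recombinase under the interferon-inducible Mx1 promoter, which is active in many cells that respond to interferon and is not limited to stem cells. LSL-MYC holds MYC downstream of a transcriptional stop flanked by loxP sites, which Cre cuts out, and the MYC genotype had it on both Rosa26 alleles. The study asked how marrow expression differs once MYC is overexpressed in hematopoietic stem cells. How Cre was induced, the age and sex of the mice, and the number of mice in a library are not given in the sources used here. With 1 library per genotype nothing could be tested, so genotype, animal and library preparation cannot be told apart. All intervals are 95% intervals that cover counting error only.

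Neutrophils form in the marrow through a series of stages. Promyelocytes make the primary granules, which hold Elane, Mpo, Prtn3 and Ctsg. Myelocytes still divide and fill the secondary granules with cathelicidin (Camp), neutrophilic granule protein (Ngp) and lactoferrin (Ltf). Metamyelocytes and later stages no longer divide and make gelatinase (Mmp9). The transcription factor Cebpe switches on secondary granule genes, and loss of Mki67 and Top2a, a proliferation antigen and a DNA topoisomerase of dividing cells, marks the exit from the cell cycle.

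The genes of the rule chose the members, so their levels are a description only. In CPM, which scales counts to a fixed total of UMIs of the members, Camp stood at 39546 for control and 44339 for MYC members. Ngp stood at 40603 and 31285, and Ltf at 9647 and 7197. These genes lie on chromosome 9 of GRCm38, Camp at 109847379 to 109849617, Ngp at 110419747 to 110423012 and Ltf at 111019271 to 111042767. Mki67, on chromosome 7 at 135689784 to 135716361, stood at 1157 and 763 CPM, and Top2a, on chromosome 11 at 98992943 to 99024189, at 804 and 700 CPM. Of the primary granule transcripts, Elane stood at 371 and 266 CPM, Mpo at 165 and 85.4, Prtn3 at 377 and 498, and Ctsg at 38.6 and 58.3. Near the threshold on granule transcripts, 183 control and 53 MYC members lay less than 0.5 percentage points above 2%, and 137 and 83 otherwise eligible cells lay less than 0.5 points below it. Near the threshold on primary granule transcripts, 33 and 26 members lay within 0.2 points under 1%, and 10 and 16 cells within 0.2 points above it. Exactly 2 proliferation UMIs were held by 464 control and 275 MYC members, and exactly 1 by 918 and 686 excluded cells.

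Members had a median of 11150 UMIs and 2641 genes (control) and of 13151.5 UMIs and 2722 genes (MYC). Their median mitochondrial share was 1.78% and 1.63%, and their median share of Camp, Ngp and Ltf was 9.27% and 8.41%. The libraries as a whole held 131884603 UMIs in 17073 barcodes and 110012176 UMIs in 14496 barcodes. Both libraries shared 97 barcode sequences, and 1 of them was a member in both. Xist gave 15101 and 11659 UMIs in the members and Y-linked genes almost none in either library. Gm42418, a gene model that overlaps a ribosomal RNA repeat, took 46137 CPM of the control members and 27046 CPM of the MYC members.

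Members were split by their proliferation UMIs, a measure of the rule, and transcripts outside the rule were read in each part. Since Mki67 and Top2a sorted these cells, higher cell cycle lists above the cut were partly given in advance. The share of members that fit the label was not measured independently of the rule. Members with at least 4 proliferation UMIs numbered 1513 (68.6%) for control and 1477 (79.5%) for MYC. In them 52 genes of G2 and mitosis summed to 13180 and 12173 CPM, and 44 S-phase genes to 3402 and 2622 CPM. Members with 2 or 3 proliferation UMIs numbered 694 and 381, and there the same lists reached only 3319 and 3328 CPM, and 756 and 807 CPM. Cells with exactly 2 proliferation UMIs stood at 3120 and 2994 CPM for G2 and mitosis, close to the 2827 and 2751 CPM of excluded cells with exactly 1. Mmp8, neutrophil collagenase, stood at 241 CPM in control members with 4 or more proliferation UMIs and at 3011 CPM in those with 2 or 3, beside 3443 CPM in control granule cells with none. In the MYC library these values were 104, 1748 and 2327 CPM. The name of a proliferating precursor fitted the cell cycle lists of members with 4 or more proliferation UMIs, while those with 2 or 3 lay nearer to non-dividing cells, in which the lists summed to 2707 and 2524 CPM for G2 and mitosis and 495 and 391 CPM for S phase. Cells with exactly 3 proliferation UMIs lay higher, at 3704 and 4141 CPM and at 933 and 972 CPM.

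**Figure D1:**
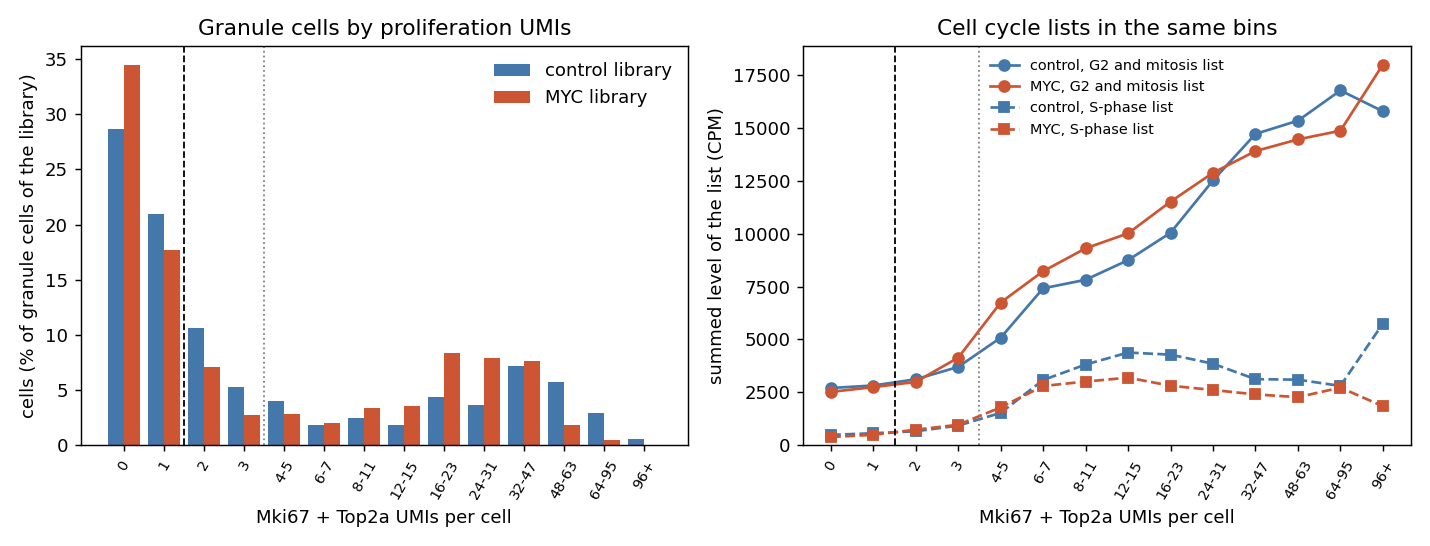
Left, granule cells (2% or more Camp, Ngp and Ltf, under 1% primary granule transcripts) of each library by their Mki67 and Top2a UMIs, as a percentage of the library's granule cells; the dashed line marks the rule's 2 UMIs and the dotted line 4 UMIs. Right, summed CPM of the S-phase and the G2 and mitosis lists in the same bins: cells with 2 UMIs lie near those with 0 or 1, and the control has more cells at 48 UMIs and above.

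A second set of members went against the label through their erythroid transcripts. The 10 erythroid markers, among them the haemoglobin genes, summed to 6693 CPM in control members and 2310 CPM in MYC members, and none of the 10 was at 0 in either. They made up 1% or more of UMIs in 325 control members (14.7%) and 47 MYC members (2.53%). These cells were shallow, with a median of 1694 and 1342 UMIs, and sat close to the granule threshold, with a median granule share of 2.53% and 2.54%. Of them 278 and 37 had a granule share under 5%, and 175 and 26 held only 2 or 3 proliferation UMIs. In the remaining members the median erythroid share was 0.101% and 0.0580%. In cells that carried B-cell, erythroid or monocyte markers the median granule share was 0.0613% to 0.142%. Between 4.08% and 5.94% of them reached 2%, and between 3.51% and 4.71% met the whole rule. Free RNA and doublets cannot be told apart in these shares. Monocyte markers in the members summed to 189 and 171 CPM, B-cell markers to 92.2 and 16.8, plasma cell markers to 174 and 52.99, and dendritic cell markers to 110 and 33.3. Macrophage markers summed to 52.7 and 77.6 CPM, of which the adhesion molecule gene Vcam1 gave 45.8 and 41.5. Named after their values were seen, the complement genes C1qa, C1qb and C1qc had 32, 32 and 24 UMIs in control and 259, 338 and 231 UMIs in MYC members. The part of these cell types in the gene differences was not tested.

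The difference in the share of members between the libraries depended on the thresholds. It was 16.7% in the control (16.02 to 17.3, exact Clopper-Pearson interval) and 17.6% in the MYC library (16.9 to 18.4), a difference of 0.968 percentage points (-0.00148 to 1.94, Newcombe interval). It was 2.92 points at a minimum of 2000 UMIs and -0.113 points with under 5% mitochondrial UMIs. Among granule cells, members made up 50.4% of 4379 control cells and 47.9% of 3881 MYC cells, which was 2.53 points lower in the MYC library (difference -2.53, interval -4.70 to -0.348). With at least 4 proliferation UMIs the order was the opposite, 34.6% against 38.1% of granule cells, a difference of 3.51 points (1.41 to 5.60), and with a granule share of 5% or more it was 2.61 points. After every cell was thinned to 5000 UMIs, the shares of granule cells were 47.5% and 47.1%, a difference of -0.386 points (-2.87 to 2.09). Thinning left out 5012 control and 3219 MYC cells, 418 and 187 of them members. Without cells that held 1% or more erythroid marker UMIs the shares were 48.2% and 48.3%.

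The number of proliferation UMIs per cell was spread differently in the 2 libraries. Control members ranged from 2 to 198 with quartiles of 3, 14 and 40, and MYC members from 2 to 153 with quartiles of 5, 18 and 29. At 48 or more UMIs lay 251, 127 and 27 control cells in the bins from 48, 64 and 96 UMIs, against 73, 19 and 2 MYC cells. In the range of 16 to 31 UMIs the MYC library had more, with 323 and 306 cells in the bins from 16 and 24 against 192 and 160. Since Mki67 and Top2a chose the cells, these counts are descriptive.

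The feature named MYC was examined first among the genes, because it bears on the labels. It stands apart from the mouse gene Myc in the files. Its sequence, and how reads were divided between it and Myc, are not given in the sources used here, so the values of both are uncertain. It had 0 UMIs in the control members and 54 in the MYC members. This was 2.17 CPM (1.63 to 2.83), and a count of 0 in the control, taken to allow 3 counts, allows up to 0.113 CPM. A MYC UMI was seen in 50 of 1858 MYC members (2.69%, 2.004 to 3.53) and in 0 of 2207 control members, where the same 3 counts allow a share of up to 0.136%. Within the MYC library, members with 4 or more proliferation UMIs stood at 1.49 CPM (1.03 to 2.10) and those with 2 or 3 at 7.52 CPM (4.65 to 11.5). Dividing granulocyte progenitors, which are cells with 1% or more primary granule transcripts and at least 2 proliferation UMIs, stood at 0.539 CPM (0.217 to 1.11). Non-dividing immature neutrophils, which are granule cells with no proliferation UMI, stood at 3.65 CPM (2.51 to 5.13). The mouse gene Myc gave 117 UMIs (4.42 CPM) in control and 61 UMIs (2.45 CPM) in MYC members, and 69.7 and 61.6 CPM in the progenitors. Its partner Max stood at 83.2 and 67.0 CPM, and the antagonists Mxd1 and Mxi1 at 266 and 251 CPM and at 100 and 87.4 CPM. Mxd1 was lower by -0.08 on the log2 scale, but higher by 0.04 in members with 4 or more proliferation UMIs, and Mxi1 was lower by -0.20; both were higher, by 0.17 and 0.06, with median-of-ratios scaling.

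Across the 10741 genes with at least 50 UMIs in the members, ratios are given as log2 of MYC over control CPM after 1 CPM was added to each, and their intervals are exact intervals of the count ratio without that addition. Past 1.5-fold, 440 genes (4.1%) were higher and 1766 (16.4%) lower in the MYC members. The median gene lay at -0.23, so the direction of many genes depended on the scaling. Relative to the median gene, 1149 genes (10.7%) were higher and 641 (5.97%) lower, which moved the share of higher among all genes past the fold from 19.9% to 64.2%. List medians are therefore given relative to the median gene, and counts past the fold on both scales, to be read against these 4 percentages. The members and lists were not independent of earlier results of these data, and a list's count is a description of these 2 libraries.

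Of the genes averaging 100 CPM or more, those furthest above the control were led by Ifitm2, Rbm3 and ribosomal protein genes. Ifitm2, which codes for an interferon-induced membrane protein that restricts virus entry, stood at 232 and 687 CPM in control and MYC members, a log2 ratio of 1.56 (1.53 to 1.61). Rbm3, a cold-inducible RNA-binding protein, stood at 316 and 789 CPM (log2 ratio 1.32), and Lgals3, the lectin galectin-3, at 250 and 569 CPM (1.18). The transcription factor Klf2 stood at 138 and 295 CPM (1.09), the polyubiquitin gene Ubb at 571 and 1200 CPM (1.07), and the linker histone Hist1h1e at 669 and 1398 CPM (1.06). The other 6 of the 12 were Rps18, Rpl32, Rps2, Rpl12, Rpl15 and Rpl10a, with log2 ratios from 1.10 to 1.23. Each of the 12 was also higher in the MYC library in the progenitors and in the non-dividing immature neutrophils. Klf2 had a log2 ratio of 1.80 in the progenitors and 1.02 in the non-dividing cells.

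Among genes averaging 100 CPM or more, with haemoglobin and some other classes left out, the 12 furthest below the control included 2 transcripts concentrated in few cells. Car2, carbonic anhydrase 2 and one of the erythroid markers, stood at 200 CPM in control and 52.8 CPM in MYC members (log2 ratio -1.90, -2.01 to -1.84). The top 1% of member cells held 42.2% of its control UMIs and 49.6% of its MYC UMIs. Without the cells with 1% or more erythroid marker UMIs its log2 ratio was -1.25. Jchain, the joining chain of secreted antibodies and a plasma cell marker, stood at 161 and 45.7 CPM (-1.79, and between -3.65 and -1.24 over 19 other settings), and the top 1% of cells held 75.8% and 83.3% of its UMIs. The part of erythroid and plasma cell RNA in both values beyond this was not tested.

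In the other 10 genes the top 1% of member cells held at most 12.4% of the UMIs of a library. Tmcc1, a membrane protein of the endoplasmic reticulum, stood at 222 and 66.05 CPM (-1.73, -1.83 to -1.67). It was detected in 78.2% of control and 48.01% of MYC members, and was lower by -1.69 in the progenitors and by -1.50 in the non-dividing cells. The secondary granule collagenase Mmp8 stood at 676 and 289 CPM (-1.22, -1.27 to -1.19). The ganglioside synthase St3gal5 stood at 291 and 150 CPM (-0.95), the surface glycoprotein Cd24a at 611 and 339 CPM (-0.85), complement component C3 at 886 and 500.03 CPM (-0.82), and the hyaluronan receptor Cd44 at 239 and 135 CPM (-0.82). Alox5, the lipoxygenase that begins leukotriene synthesis, stood at 137 and 76.1 CPM (-0.84). Megf9, Chil1 and Phip lay between -0.94 and -0.86. Each of these 10 was lower in the MYC library in the progenitors and the non-dividing cells too.

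**Figure D2:**
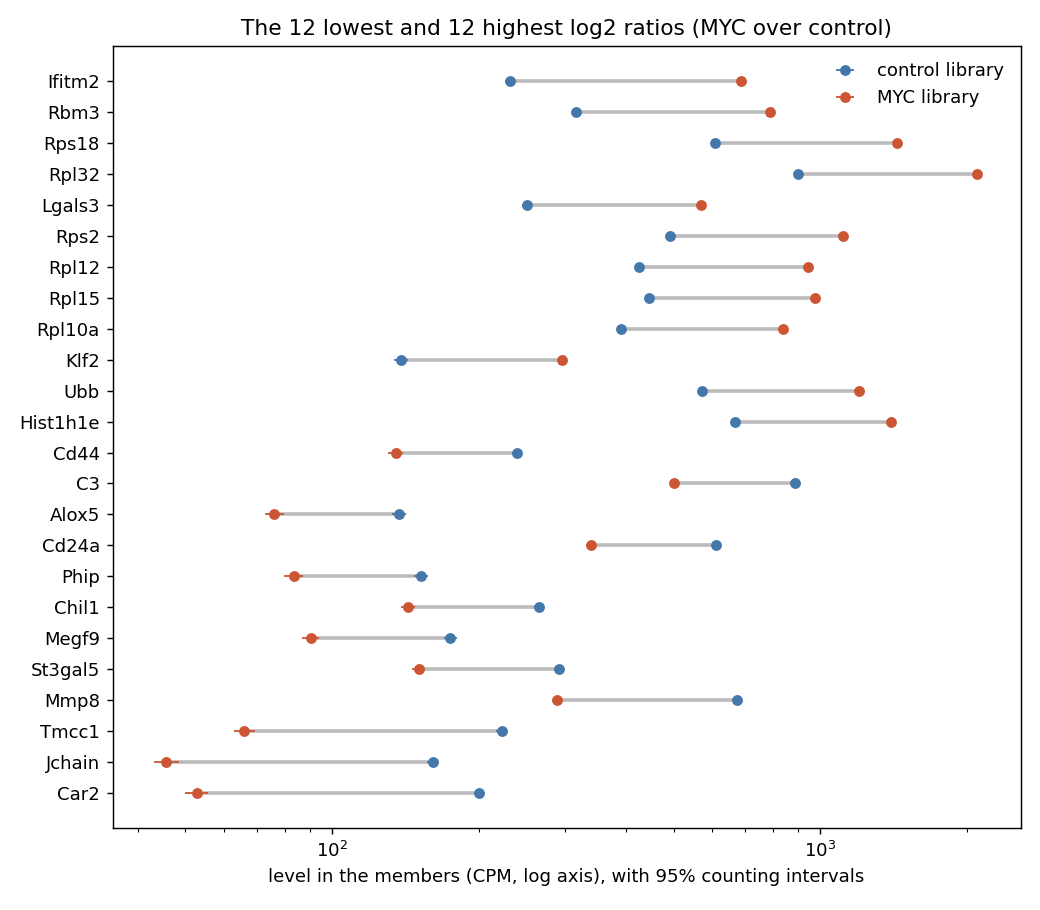
Level in the members of the 12 genes with the lowest and the 12 with the highest log2 ratio, in CPM on a log axis. Only genes averaging 100 CPM or more were ranked, leaving out rule, mitochondrial, haemoglobin, immunoglobulin, T-cell receptor and sex-linked genes. The control library is blue and the MYC library red, horizontal bars are 95% counting intervals and grey lines join the libraries. Car2 lies at 200 and 52.8 CPM and Ifitm2 at 232 and 687 CPM.

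Secondary granule transcripts outside the rule did not move as a block. Of 8 such genes, 0 were 1.5-fold or more higher and 1, Mmp8, was lower by total scaling, 1 and 1 relative to the median gene, and 5 of 8 lay above the median gene. Lcn2, the iron-binding lipocalin, stood at 11117 and 12041 CPM (log2 ratio 0.12). Pglyrp1, which binds bacterial peptidoglycan, stood at 2100 and 2374 CPM (0.18), and Hp, haptoglobin, at 1093 and 1311 CPM (0.26). Lower in the MYC members were the neutrophil surface antigen Cd177, at 1049 and 812 CPM (-0.37), Itgb2l at 325 and 249 CPM (-0.38), and the chitinase-like protein Chil3 at 6887 and 6054 CPM. The log2 ratio of Chil3 was -0.19, and 0.07 with median-of-ratios scaling. Ceacam10 stood at 30.1 and 40.6 CPM (0.42).

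The primary granule and early granulocyte list, without the 4 rule genes, lay 0.61 above the median gene, and 6 of its 9 genes lay above it. By total scaling 2 were 1.5-fold or more higher and 1 lower (4.1% and 16.4% of all genes). Relative to the median gene these counts were 5 and 1 (10.7% and 5.97%). Of the rule genes left out, Elane and Mpo were lower and Prtn3 and Ctsg higher in the MYC members. Serpinb1a, an inhibitor of neutrophil serine proteases, stood at 666 and 1054 CPM (log2 ratio 0.66, 0.63 to 0.69). Plac8 stood at 279 and 364 CPM (0.38). Of 19 gelatinase granule and late neutrophil genes, 5 were higher and 4 lower by total scaling, and 6 and 2 relative to the median gene. Csf3r, the receptor for granulocyte colony-stimulating factor, stood at 128 and 63.2 CPM (-1.01, -1.10 to -0.93), and Retnlg at 1330 and 1262 CPM (-0.08, and 0.18 with median-of-ratios scaling). The small difference of Retnlg covered opposite ones, with log2 ratios of 0.39 in members with 2 or 3 proliferation UMIs and -0.12 in those with 4 or more, and of 0.22, -0.59 and -0.64 at granule shares of 2 to 5%, 5 to 10% and 10% or more. Stfa2, a cysteine protease inhibitor, had 38 and 224 UMIs.

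The members were also ordered by their share of Camp, Ngp and Ltf. These genes are part of the rule and their levels differed between the libraries, so equal ranges need not hold like cells, and the values along the order are a description. The range of 2 to 5% held 441 control and 233 MYC members, 5 to 10% held 904 and 1244, and 10% or more held 862 and 381. In the range of 2 to 5% the median cell had 2079 UMIs (control) and 7624 UMIs (MYC). Cebpe stood at 226, 583 and 674 CPM along this order in the control and at 311, 641 and 757 CPM in the MYC library. Mmp8 went the other way, with 1808, 712 and 326 control CPM and 978, 256 and 52.3 CPM in the MYC library, and its log2 ratio was -0.89 at the low end and -2.62 at the high end. Mmp9, examined with Cxcr2 after its values were seen, stood at 1027, 459 and 289 CPM and at 725, 256 and 107 CPM, and its log2 ratio went from -0.50 to -1.43. Cd177 stood at 661, 966 and 1246 CPM in the control, and at 617, 835 and 835 CPM in the MYC library. Ifitm2 was higher in the MYC library at each step, with log2 ratios of 1.54, 1.59 and 1.48. In the range of 2 to 5% erythroid markers summed to 24163 CPM in control and 6695 CPM in MYC members, against 997 and 548 CPM at 10% or more.

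**Figure D3:**
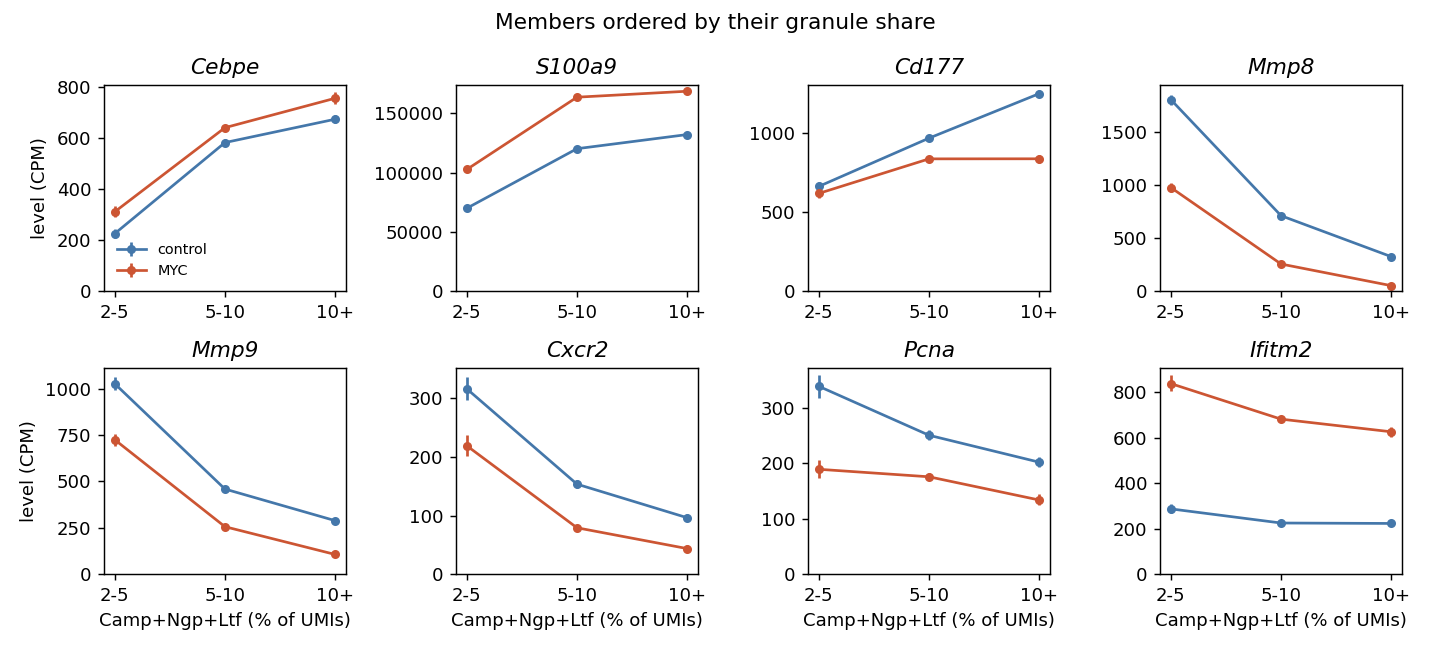
Levels in CPM of 8 genes in members with 2 to 5%, 5 to 10% and 10% or more of their UMIs from Camp, Ngp and Ltf, in the control library (blue) and the MYC library (red), with 95% counting intervals. Cebpe, S100a9 and control Cd177 increase along the order and Mmp8, Mmp9, Cxcr2 and Pcna decrease, with Mmp8 at 326 and 52.3 CPM at the last step.

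Of 16 granulocyte transcription factors, 0 were 1.5-fold or more higher and 4 (beside 16.4% of all genes) lower by total scaling. Relative to the median gene 1 was higher and 2 lower, and 5 lay above it. Cebpe, on chromosome 14 at 54710360 to 54712174, stood at 580 and 631 CPM (log2 ratio 0.12, 0.09 to 0.15). Its log2 ratio was 0.12 in members with 4 or more proliferation UMIs and -0.14 (-0.25 to -0.03) in those with 2 or 3. Cebpb, which drives granulocyte production under stress, stood at 148 and 214 CPM (0.53), Cebpd at 251 and 252 CPM (0.01), and Spi1, the myeloid factor PU.1, at 339 and 355 CPM (0.06). Irf8, which directs progenitors to the monocyte fate, stood at 47.9 and 21.3 CPM (-1.13), but at -0.50 and under 1.5-fold without cells that carried markers of other lineages. Gata2 stood at 6.05 and 2.57 CPM (-0.98, and -0.38 after thinning). Myb, a factor of immature cells, stood at 65.8 and 38.9 CPM (-0.75) and Runx1 at 77.6 and 49.3 CPM (-0.64, and -0.46 after thinning). Gfi1, a repressor needed for neutrophil formation, stood at 38.8 and 27.9 CPM (-0.46), and Cebpa at 13.2 and 8.68 CPM (-0.55). Klf4 stood at 14.3 and 10.6 CPM; its log2 ratio was -0.39, and 0.28 without cells that carried markers of other lineages.

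The summed level of the S-phase genes was 2987 CPM in control and 2418 CPM in MYC members, and that of the G2 and mitosis genes 11634 and 11181 CPM. The 44 S-phase genes had a median log2 ratio of -0.30, which was -0.07 relative to the median gene, with 0 genes 1.5-fold or more higher and 10 (beside 16.4% of all genes) lower by total scaling, but 1 higher and 2 lower relative to the median gene. Pcna, the sliding clamp of DNA polymerase, stood at 241 and 168 CPM (-0.51, -0.57 to -0.46), and Cdc6, which loads the replicative helicase, at 27.4 and 13.7 CPM (-0.95). Rrm1, the large subunit of ribonucleotide reductase, stood at 184 and 121 CPM (-0.61, and -0.42 after thinning), while Gmnn, an inhibitor of relicensing, stood at 82.9 and 117 CPM (0.49). Rrm2, the small subunit of the reductase, stood at 166 and 159 CPM. Its log2 ratio of -0.06 was 0.19 with median-of-ratios scaling. The 52 G2 and mitosis genes had a median of -0.19, 0.04 above the median gene, with 0 higher and 1 lower by total scaling, and 1 and 0 relative to the median gene. The mitotic kinase Cdk1 stood at 147 and 186 CPM (0.33) and the survivin gene Birc5 at 209 and 282 CPM (0.43). Smc4 of the condensin complex stood at 649 and 499 CPM (-0.38), and Hmgb2 at 4373 and 4273 CPM (-0.03, and 0.22 with median-of-ratios scaling). Gas2l3 was the 1 gene past the fold by total scaling, at 45.0 and 29.4 CPM (-0.60), and was at -0.24 as a mean over cells.

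At equal depth the same order was seen in members with 4 or more proliferation UMIs. Thinned to 5000 UMIs, 1352 control cells held a mean of 16.8 S-phase UMIs and 1396 MYC cells a mean of 13.2, and the means for G2 and mitosis were 65.0 and 61.2. Unthinned, the medians per cell were 0.282% and 0.236% of UMIs for S phase and 1.35% and 1.26% for G2 and mitosis. Over all members, which include those with 2 or 3 proliferation UMIs, they were 0.207% and 0.205% for S phase and 0.931% and 1.15% for G2 and mitosis, so that the order for G2 and mitosis was the opposite. The median number of genes detected at that depth was 1605.5 and 1474. Thinning left out 161 and 81 of these cells as too shallow.

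Among 26 cell cycle regulators, 0 were 1.5-fold or more higher and 4 lower by total scaling, near the 16.4% of all genes, and 3 were higher and 2 lower relative to the median gene. Cdk6, a kinase of G1 that is also abundant in progenitors, stood at 54.4 and 28.1 CPM (-0.93), and Cdk2 at 70.9 and 45.1 CPM (-0.64, and -0.48 as a mean over cells). Ccnd1 had 6.96 and 2.41 CPM, and its log2 ratio of -1.22 turned to 0.10 without the cells with the highest doublet scores and was -0.16 without other lineage markers. Ccnd3, the D cyclin of granulocytes, stood at 356 and 317 CPM (-0.17), Ccna2 at 132 and 114 CPM (-0.22), Cdkn1b at 86.6 and 74.6 CPM (-0.21) and Cdkn2c at 63.1 and 53.5 CPM (-0.23). These 4 lay between 0.02 and 0.09 above 0 with median-of-ratios scaling. The inhibitor Cdkn2d stood at 168 and 247 CPM (0.56), and Cdkn1a at 7.14 and 10.6 CPM (0.51).

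Replication-dependent histone genes lay 0.49 above the median gene, with 12 of 60 genes 1.5-fold or more higher and 1 lower by total scaling (4.1% and 16.4% of all genes), and 23 and 0 relative to the median gene (10.7% and 5.97%). Hist1h1b stood at 968 and 1801 CPM (0.90, 0.87 to 0.92) and Hist1h2af at 40.5 and 97.5 CPM (1.25). Hist1h2ap stood at 1514 and 1127 CPM (-0.43). Histone genes of one kind are near-identical copies, and how reads were divided among them is not given in the sources used here, so single members of the family are uncertain.

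Cytosolic ribosomal protein genes were higher in the MYC members as a group. Their summed level was 63889 CPM in control and 98019 CPM in MYC members. Of 82 compared, 53 were 1.5-fold or more higher by total scaling and 63 relative to the median gene, 0 were lower by either, and all 82 lay above the median gene. Their median was 0.89 above the median gene. Rpl32 stood at 899 and 2096 CPM (1.22) and Rps18 at 609 and 1434 CPM (1.23). Rps29 stood at 2766 and 2875 CPM (0.06, and -0.011 in members with 4 or more proliferation UMIs). Rps21 stood at 940 and 821 CPM; its log2 ratio was -0.20, and 0.06 with median-of-ratios scaling. Ribosomal protein genes have many processed pseudogenes, so single genes are uncertain.

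On the log2 scale the ribosomal difference was larger in cells that had left the cycle than in the progenitors. In summed CPM the gap was wider in the progenitors, at 221670 and 270400, than in the non-dividing cells, at 32786 and 56272. Relative to each population's own median gene, the list lay 0.55 higher in the progenitors, 0.89 in the members and 1.07 in the non-dividing cells, and whether these differ was not tested. Short genes were higher in the MYC library in general. Split into 4 equal bins of exon length, the median log2 ratio in the members was 0.07, -0.18, -0.30 and -0.41 from the shortest to the longest, and 0.06 in the shortest bin without ribosomal genes. The order was the same in the progenitors (0.12, -0.16, -0.29 and -0.42) and in the non-dividing cells (0.09, -0.17, -0.29 and -0.39). The part of transcript length in the list differences was not tested.

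Nuclear-encoded respiratory chain genes lay 0.47 above the median gene, with 9 of 79 genes 1.5-fold or more higher and 0 lower by total scaling (4.1% and 16.4% of all genes), and 26 and 0 relative to the median gene (10.7% and 5.97%). Atp5g1, a subunit of the ATP synthase ring, stood at 76.5 and 148 CPM (0.95), Cox8a at 428 and 550 CPM (0.36) and Ndufa3 of complex I at 248 and 167 CPM (-0.57). The 13 transcripts of mitochondrial DNA lay -0.13 from the median gene, with 0 higher and 1 lower on both scales. mt-Co1 stood at 5136 and 4009 CPM (-0.36) and mt-Co3 at 3858 and 4100 CPM (0.09).

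Growth genes that MYC is known to induce lay 0.34 above the median gene in the members. Of 55, 5 were 1.5-fold or more higher and 1 lower by total scaling (4.1% and 16.4% of all genes). Relative to the median gene 12 were higher and 1 lower (10.7% and 5.97%), and 50 lay above it. The summed level was 2402 CPM in control and 2827 CPM in MYC members, beside 9309 and 11039 CPM in the progenitors. The list lay 0.37 above the median gene in the progenitors and in the non-dividing cells. At granule shares of 2 to 5%, 5 to 10% and 10% or more it lay 0.08, 0.36 and 0.62 above. At 2 to 5% its sum was lower in the MYC members, at 4809 and 4542 CPM. Ldha, lactate dehydrogenase, stood at 212 and 309 CPM (0.54) and the nuclear transport GTPase Ran at 248 and 306 CPM (0.30). Cdk4 stood at 27.6 and 28.3 CPM (0.04). Rrp9, of the small nucleolar complex, had 28 and 69 UMIs, or 1.06 and 2.77 CPM (0.87). Odc1, ornithine decarboxylase and a classic MYC target, stood at 44.2 and 22.9 CPM (-0.92, -1.10 to -0.81). It was the 1 lower gene of the list, and its log2 ratio was -0.07 without erythroid-rich cells, -0.23 without the highest doublet scores and -0.36 with a granule share of 5% or more.

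MYC binds the E-box CACGTG, a palindrome that reads the same on both strands. RefSeq promoters of GRCm38.p6 matched 49 of the 55 genes, and 12 of these held CACGTG in the 250 bases before a start, beside 6.86% of all 27025 genes and 6.02% of all 32851 windows. The 2 windows shown, 30 bases each and 5′ to 3′ on the gene's strand with the E-box in capitals, belong to genes with a log2 ratio of 0.30 and 0.04. The Ran window lies at chr5:129020026-129020055, with 112 bases between the motif and the start. The Cdk4 window, 1 of 4 matches before that gene, lies at chr10:127063425-127063454, with 92 bases to the start. A match of letters is a description and not a binding site.
Ran: gctcggccggccCACGTGacccgccgcccc
Cdk4: atagcaacaggtCACGTGgccgtcagggcc

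Interferon-response genes were mostly lower in the MYC members, except for the Ifitm genes. Of 38 compared, 23 were 1.5-fold or more lower and 3 higher, against 16.4% lower and 4.1% higher of all genes, and the list's median lay -0.43 from the median gene. Relative to the median gene 15 were lower and 4 higher, against 5.97% and 10.7% of all genes. Rsad2, the antiviral protein viperin, stood at 40.6 and 8.12 CPM (-2.19, -2.55 to -2.11). Chosen after their values were seen, the ubiquitin-like Isg15 stood at 34.5 and 17.3 CPM (-0.95) and the interferon regulator Irf7 at 14.9 and 9.32 CPM (-0.62).

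The Ifitm genes code for small membrane proteins and lie together on chromosome 7, among them Ifitm2 at 140954837 to 140955987, Ifitm3 at 141009586 to 141010770 and Ifitm6 at 141015699 to 141017924. Ifitm3 stood at 410 and 743 CPM (0.86) and Ifitm6 at 1024 and 1515 CPM (0.57). Ifitm1, named after its values were seen, stood at 15.8 and 41.3 CPM (1.34). Through these genes the summed level of the list was higher in the MYC members, at 2595 against 3524 CPM, while its median was lower. The same division was present in the nearest cells. Ifitm2 had log2 ratios of 1.08 in the progenitors and 2.01 in the non-dividing cells, and Rsad2 of -1.85 and -1.22. The genes are close relatives, so reads shared between them could move single values.

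**Figure D4:**
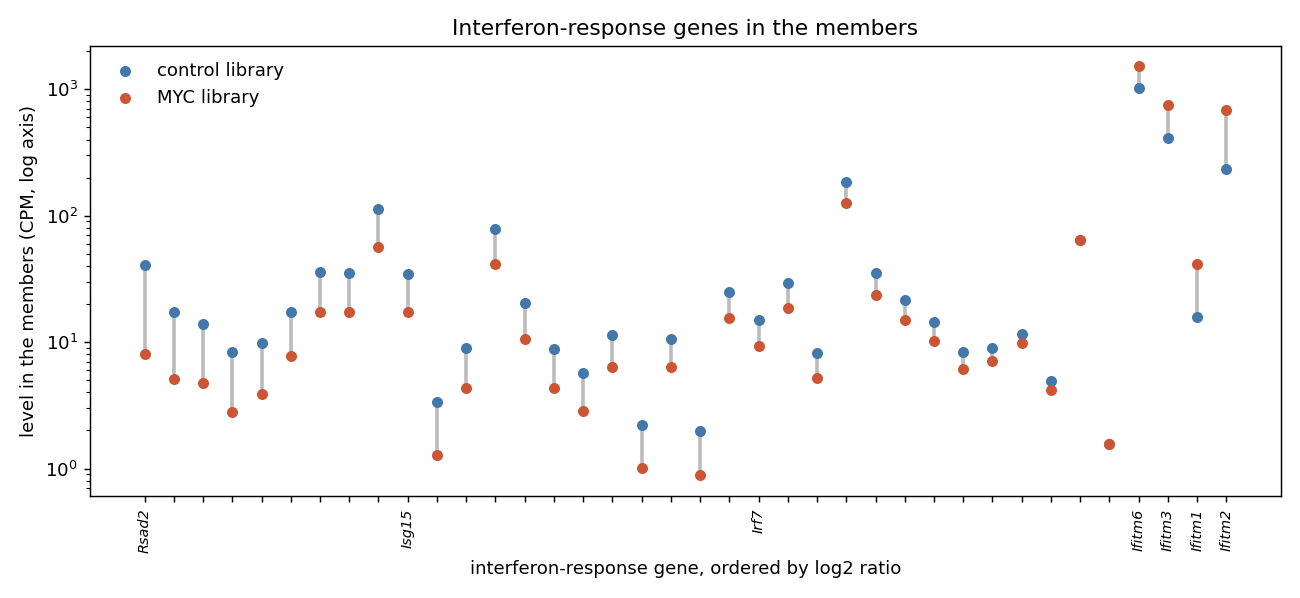
Level in the members of the 38 compared interferon-response genes, in CPM on a log axis, ordered by log2 ratio, for the control library (blue) and the MYC library (red), with the genes named in the text labelled. Only the 4 Ifitm genes at the right lie clearly higher in the MYC library, and Rsad2 at the left lies at 40.6 and 8.12 CPM.

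Interferon-response genes are bound by interferon-activated factors at a response element whose core is searched here as GAAA, any 2 bases and GAAA again, on both strands. RefSeq promoters matched 33 of the 41 list genes in the files, and 17 of the 33 held a match in the 250 bases before a start, beside 3.46% of all genes and 2.98% of all windows. Of the 23 genes that were 1.5-fold or more lower, 11 had such a promoter. Of the 3 that were higher, 1 had it, Ifitm2, and of the 12 between these limits, 3. These counts include genes without a matched promoter, so they are not shares of the 33 genes searched. The windows of 30 bases are shown for 2 genes with lower and 1 with higher levels in the MYC members, with the match in capitals on the gene's strand or as its reverse complement. They lie at chr12:26456553-26456582 (Rsad2, 110 bases before the start), chr4:156200871-156200900 (Isg15, 62 bases, 1 of 3 overlapping matches) and chr7:140955988-140956017 (Ifitm2, 36 bases). All are on the minus strand, and a match shows letters only.
Rsad2: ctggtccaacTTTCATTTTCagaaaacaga
Isg15: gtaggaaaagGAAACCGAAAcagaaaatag
Ifitm2: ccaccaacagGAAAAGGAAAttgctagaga

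Alarmins are proteins that alert the immune system when cells release them, and the series' title names them. Of 10 listed, 8 were compared; 2 were 1.5-fold or more higher and 0 lower by total scaling, 5 and 0 relative to the median gene, and all 8 lay above the median gene. S100a8 and S100a9 code for the calprotectin subunits and are neighbours on chromosome 3, at 90668978 to 90670035 and 90692632 to 90695721. S100a9 stood at 119310 and 158127 CPM in the members (0.41, 0.40 to 0.41). S100a8 stood at 110839 and 103241 CPM, a log2 ratio of -0.10 that turned to 0.15 with median-of-ratios scaling. Scaled by the total, it was -0.13 in members with 4 or more proliferation UMIs and 0.08 in those with 2 or 3, and 0.11 at a granule share of 2 to 5% and -0.16 at 10% or more. S100a6 stood at 857 and 1510 CPM (0.82, and 0.56 as a mean over cells), S100a4 at 45.4 and 81.5 CPM (0.83), S100a11 at 1023 and 1370 CPM (0.42) and the nuclear alarmin Hmgb1 at 739 and 828 CPM (0.16). Il33 had no UMI and Il1a 0 and 1 UMIs. S100a9 was also higher in the progenitors, at 25425 and 30995 CPM, and in the non-dividing cells, at 123844 and 169200 CPM.

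The phagocyte oxidase, which makes superoxide, showed opposite differences in its membrane subunits. Cybb, the catalytic subunit, stood at 2107 and 1579 CPM (-0.42, -0.43 to -0.40), and Cyba, which stabilises it, at 1438 and 2186 CPM (0.60, 0.59 to 0.62). Cyba lay at the 1.5-fold limit, and was at 0.57 without erythroid-rich cells. Of the cytosolic subunits, Ncf1 stood at 701 and 534 CPM (-0.39) and Ncf4 at 354 and 479 CPM (0.43). Rac2 stood at 861 and 762 CPM; its log2 ratio of -0.18 was 0.08 with median-of-ratios scaling. In the non-dividing cells Cybb had a log2 ratio of -0.54 and Cyba of 0.58.

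Of 20 growth factor and trafficking receptors, 9 were lower and 0 higher by total scaling, beside 16.4% and 4.1% of all genes. Relative to the median gene 1 was lower and 0 higher, near the 5.97% of all genes that were lower, and the list's median was -0.19. Itgam, the integrin subunit CD11b, stood at 609 and 364 CPM (-0.74). Csf1r, the receptor of the monocyte lineage, stood at 8.51 and 9.80 CPM, and Ly6c2 at 858 and 815 CPM (-0.07, and 0.18 with median-of-ratios scaling).

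Relative to the median gene, 4 lists changed sign between the members, the dividing progenitors and the non-dividing immature neutrophils. Endoplasmic reticulum genes lay at 0.26 in the members, -0.02 in the progenitors and 0.26 in the non-dividing cells. Mitochondrially encoded genes lay at -0.13, -0.49 and 0.07, the oxidase list at -0.01, 0.04 and 0.11, and the MYC network at -0.02, 0.07 and 0.09. None of these differences between populations was tested.

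**Figure D5:**
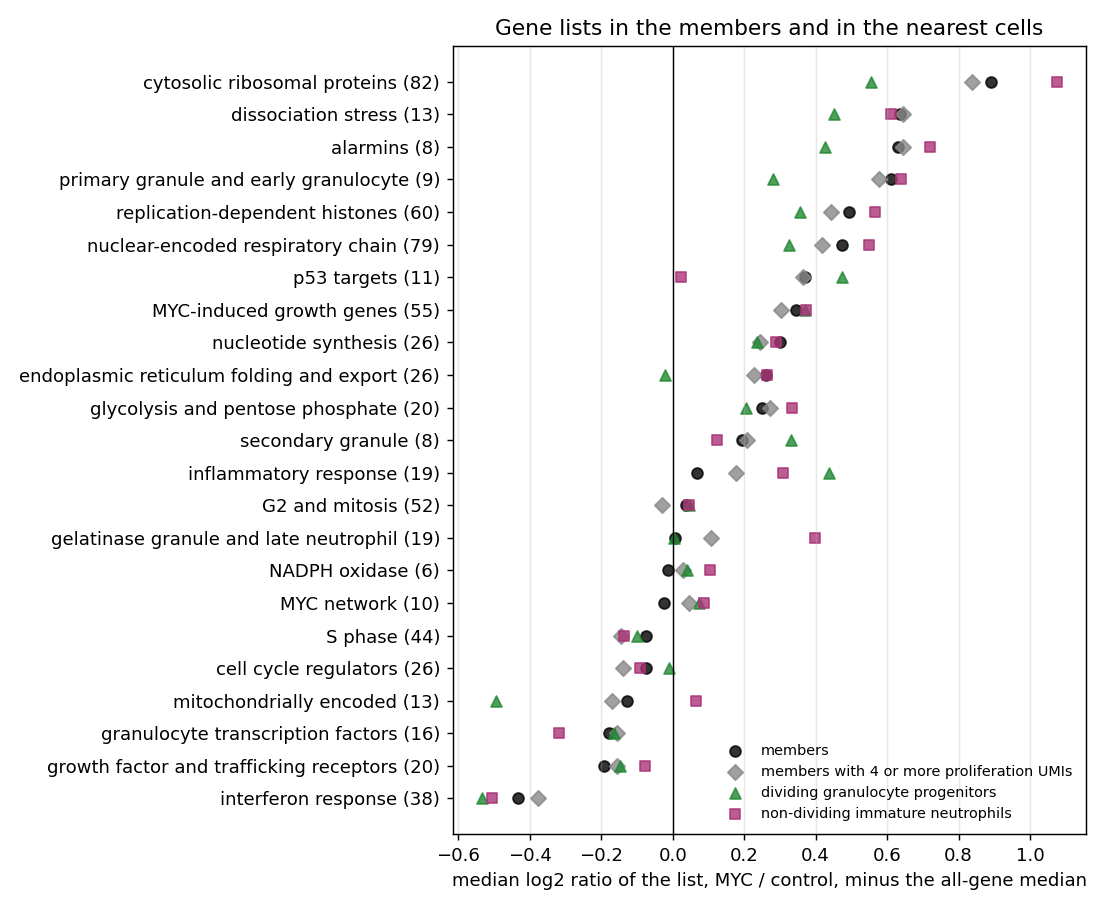
Median log2 ratio (MYC over control) of each gene list minus the median of all genes compared in that population, with the number of genes compared in the members in brackets, for all members (black), members with 4 or more proliferation UMIs (grey), dividing progenitors (green) and non-dividing immature neutrophils (purple). The ribosomal list lies highest, at 0.89 in the members, and the interferon list lowest, at -0.43.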

How the data were processed

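The authors deposited 1 matrix of UMI counts (whole numbers) for each library. The file headers name Cell Ranger 6.0.0, and the build was GRCm38 (mm10) per the submitters' processing notes. How barcodes were called as cells is not given in the sources used here. A droplet 3′ kit was used per the labels' protocols. The members and gene lists were chosen with earlier results of these data known. Counts were summed per library over the cells of a population and scaled to CPM, with exact Poisson intervals. Shares have Clopper-Pearson intervals. Differences of shares have intervals that combine these bounds in the manner of Newcombe, in place of the score bounds of the usual Newcombe interval. No test was possible with single libraries. Genes needed 50 UMIs over both libraries. The genes named were the 12 highest and 12 lowest log2 ratios at a mean of 100 CPM or more with an interval excluding 1, leaving out rule, mitochondrial, haemoglobin, immunoglobulin, T-cell receptor and sex-linked genes. From each list the 2 most abundant and the extreme genes were added, and all genes of the secondary granule, transcription factor, cell cycle regulator, alarmin, oxidase and MYC network lists could be named. Positions are from GENCODE vM21. Doublets were scored with Scrublet in scanpy 1.11.5 and kept: at its automatic threshold it called 231 (10.5%) of the control members but 0 of 10543 cells of the MYC library, where it had not worked. The interval and ratio code was tested on simulated data. Some genes are not reported here.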

Additional observations from a re-analysis of the deposited data

Results flagged for a closer look

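In 4 of the genes named, the members and a neighbouring population differed in opposite directions between the libraries with counting intervals on opposite sides of 0 by total scaling and on opposite sides of each population's median gene. With 1 library per group these differences were not tested. Cebpe had a log2 ratio of 0.12 in the members (580 and 631 CPM) and -0.42 in the non-dividing immature neutrophils (410 and 305 CPM); in members with 2 or 3 proliferation UMIs it had -0.14. Hist1h2ap had -0.43 in the members (1514 and 1127 CPM) and 0.36 in the non-dividing cells (44.8 and 57.7 CPM). Rps29 had 0.0557 in the members (2766 and 2875 CPM) and -0.23 in the dividing progenitors (8139 and 6963 CPM). Its progenitor interval (-0.2376 to -0.2125) barely missed the median gene of the progenitors (-0.2122). In members with 4 or more proliferation UMIs the sign of Rps29 was negative too. mt-Co3 had 0.0876 in the members (3858 and 4100 CPM) and -0.30 in the progenitors (10255 and 8329 CPM). By total scaling 10 genes had intervals on opposite sides of 0, the other 6 being Birc5, Ly6c2, Mxd1, Nfkbia, Retnlg and S100a8, each against the non-dividing cells. Among them Retnlg had -0.08 in the members and 0.77 in the non-dividing cells (5838 and 9935 CPM), Birc5 0.43 and -0.35, and S100a8 -0.10 and 0.09.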

How the results depend on the processing

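No paired analysis was possible because each genotype has 1 library. The planned setting without called doublets was not run, since the caller marked 0 of 10543 MYC cells. Settings without erythroid-rich cells, without the 10% of cells with the highest doublet scores, with proliferation transcripts at 0.1% of UMIs and with totals that leave out Gm42418 were chosen after seeing the data. Depth limits the 2-UMI threshold; thinning equalises depth but also leaves out shallow cells, so the effects of both cannot be told apart. For all changes listed, the cause was not tested.

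The difference in the share of cells (0.968 points) was 2.92 at a minimum of 2000 UMIs, -0.113 with under 5% mitochondrial UMIs, 2.09 with a granule share of 5% or more, 2.59 with 4 or more proliferation UMIs and 1.97 without erythroid-rich cells. The difference among granule cells (-2.53 points) was 2.61, 3.51 and 0.0493 under the last 3 of these settings and -0.0735 without cells bearing other lineage markers. Counts of 440 higher and 1766 lower genes became 1149 and 675 with median-of-ratios factors and 163 and 433 with a pseudocount of 10 CPM. Scaling by the median gene instead gave 1149 and 641. The median of all genes was 1.22e-05 with median-of-ratios factors.

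Relative to the median gene, the G2 and mitosis list (0.04) was -0.029 with 4 or more proliferation UMIs, -0.022 with 0.1% of UMIs, 0.25 as a mean over cells, 0.16 after thinning and -0.054 with a pseudocount of 10. The MYC-induced list (0.34) was 0.48 with a granule share of 5% or more, 0.47 without other lineage markers, 0.20 with 0.1% of UMIs, 0.17 as a mean over cells, 0.45 after thinning and 0.18 with a pseudocount of 10. The ribosomal list (0.89) was 1.02 without other lineage markers, 0.75 with 0.1% of UMIs, 1.01 after thinning and 0.77 with a pseudocount of 10, and the interferon list (-0.43) was -0.26 with that pseudocount. The sex-linked list, in which Xist alone was compared (-0.06), was 0.025 without other lineage markers, 0.0047 without the highest doublet scores, 0.10 as a mean over cells and 0.059 after thinning.

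Of 163 genes, 28 changed sign in at least 1 of 19 settings; the counting interval of 10 of them included 0 from the start, and that of the other 18 did not. Of the 18, those that did so with median-of-ratios factors were Ccna2 (0.038), Ccnd3 (0.089), Cdkn1b (0.041), Cdkn2c (0.018), Chil3 (0.071), Hmgb2 (0.22), Ly6c2 (0.18), Mxd1 (0.17), Mxi1 (0.058), Rac2 (0.078), Retnlg (0.18), Rps21 (0.061), Rrm2 (0.19), S100a8 (0.15) and Wfdc21 (0.034). Hmgb2 was 0.10 as a mean over cells and 0.021 after thinning. Ccnd1 was 0.10 without the highest doublet scores and Klf4 0.28 without other lineage markers. Mxd1 was 0.040 with 4 or more proliferation UMIs and 0.15 with 0.1% of UMIs, where Rps29 was -0.011 and -0.076. Retnlg was 0.0098 with the rule applied after thinning and 0.0013 after thinning the members. Rrm2 was 0.0049 with a granule share of 5% or more, 0.052 after thinning and 0.018 without erythroid-rich cells. Of 70 genes past 1.5-fold, 27 came under it in at least 1 setting, 10 of them only with median-of-ratios factors or a pseudocount of 10 CPM.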

Other observations

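Genes outside the lists already described also differed in the members. Counts past 1.5-fold are given by total scaling (4.1% of all genes higher, 16.4% lower) and then relative to the median gene (10.7% and 5.97%). Of 13 dissociation-stress genes compared, 4 were higher and 1 lower, then 7 and 1, and the list lay 0.64 above the median gene. The immediate early gene Egr1 stood at 14.0 and 42.0 CPM (control and MYC members, log2 ratio 1.52), Ier2 at 216 and 306 CPM (0.50), Zfp36 at 220 and 157 CPM (-0.48) and the heat shock gene Hsph1 at 4.95 and 2.09 CPM (-0.95, and -0.44 with a granule share of 5% or more). These genes respond to tissue handling as well as to signals, and their part in other results was not tested.

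Of 19 inflammatory genes, 3 were higher and 5 lower, then 3 and 3. The chemokine gene Cxcl2 had 103 and 422 UMIs (3.89 and 17.0 CPM, log2 ratio 1.88), the inflammasome adaptor Pycard stood at 76.4 and 131 CPM (0.77), and the prostaglandin synthase Ptgs2 had 102 and 14 UMIs (3.86 and 0.562 CPM, -1.64). Among 11 p53 targets 3 were higher and 1 lower, then 4 and 0, with the death effector Bax at 24.5 and 44.6 CPM (0.84) and Trp53inp1 at 36.4 and 21.5 CPM (-0.73, and -0.44 after thinning). Of 20 glycolysis and pentose phosphate genes 1 was higher and 0 lower, then 4 and 0: Gapdh stood at 714 and 1254 CPM (0.81), Hk1 at 62.0 and 43.7 CPM (-0.49) and Tkt at 1069 and 833 CPM (-0.36). Of 26 nucleotide synthesis genes 3 were higher and 2 lower, then 5 and 0, with Nme2 at 49.3 and 107 CPM (1.10) and Pfas at 5.44 and 3.05 CPM (-0.67, and -0.46 with a granule share of 5% or more). Of 26 endoplasmic reticulum genes 3 were higher and 1 lower, then 4 and 0, with Ssr4 at 80.4 and 158 CPM (0.97) and the chaperone Hsp90b1 at 276 and 174 CPM (-0.66).

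Fcnb, the gene of ficolin B, was examined after its values were seen. Control members had 1506 and MYC members 892 CPM of it (-0.75). It stood at 1377 and 626 CPM in the progenitors, and at 203 and 148 CPM in the non-dividing cells. In members with 5 to 10% granule transcripts it stood at 1841 and 932 CPM, and in those with 2 to 5% at 515 and 518 CPM.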
